A study of Mus musculus with 28 samples.

Results

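Histones are the proteins around which DNA is wrapped in the nucleus, and their genes are described here in mouse 3LL cells, a Lewis lung carcinoma line, and in the tumors that these cells formed. The histone genes were taken from the expression table by their symbols (H1f, H2ac, H2bc, H3c, H4c, H2a, H2b, H2az, H3f3 and the older Hist1h to Hist4h names), leaving out the H2 genes of the major histocompatibility complex. Of the 43143 rows of the table, 78 carried such a symbol, and none was chosen by its values. They comprised 64 rows of replication-dependent histone genes (6 of H1, 17 of H2A, 17 of H2B, 12 of H3 and 12 of H4), 7 rows of replacement histone genes, 6 pseudogenes and the antisense RNA H3f3aos. H1f6, H2aw and H2bu2 were counted as replication-dependent by their older symbols, and the macroH2A genes fall outside the symbol rule. In 72 cases the row was that of a gene, and in 6 it was that of a single transcript: H2az1, H3f3a, H3f3b, H2bc6, H2bc23 and H2bc24. The transcripts listed for H2az1, H3f3b and H2bc6 are processed transcripts without a coding sequence, those for H2bc23 and H2bc24 are annotated as targets of nonsense-mediated decay, and each of these 6 rows can hold a minor form of its gene.

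The series compared wild-type (WT) 3LL cells, KEAP1-KO cells edited in Keap1 by CRISPR-Cas9, and KEAP1-NRF2 double-knockout (DKO) cells, in which Nrf2 (gene symbol Nfe2l2) was edited in the KEAP1-KO line. Each edited line was grown from a single colony. The labels do not say how many lines of a genotype were sequenced, so a genotype may here be 1 clone. KEAP1 marks the transcription factor NRF2 for degradation, and its loss leaves NRF2 active. The 7 groups held 4 libraries each: WT, KEAP1-KO and DKO cells in culture without any drug, tumors of experiment A (WT and KEAP1-KO) and tumors of experiment B (KEAP1-KO and DKO). Tumors grew under the skin of male albino C57BL/6 mice that carried 1 genotype on each flank (experiment A, WT left and KEAP1-KO right, and experiment B, KEAP1-KO left and DKO right), so genotype and flank cannot be told apart within an experiment. The extraction protocol among the labels names liver, against the titles and the methods of the study, which were followed here. Nothing in the labels says that the 4 libraries of cultured cells came from separate cultures, and p-values on them may measure technical spread.

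Replication-dependent histone genes lie in clusters, lack introns and are switched on together in S phase, when the new DNA has to be packed. Their mRNAs end in a stem-loop in place of a poly(A) tail, and the stem-loop binding protein SLBP carries them through processing and translation. Replacement histones such as H3.3, H2A.Z and H1.0 are made throughout the cell cycle from ordinary polyadenylated mRNAs, take the place of the S-phase forms in existing chromatin, and are known to be prominent in cells that have stopped dividing. The libraries were made from RNA depleted of ribosomal RNA and not by poly(A) selection, which keeps mRNAs without a tail.

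The stem-loop is the sequence feature that sets these kinds of gene apart, and it was searched for as GGCNCTTTTNAGNGCC on the transcript's own strand in GENCODE vM21 transcripts. It was found in 41 of the 64 replication-dependent genes, in 1 of the 7 replacement genes (H2ax) and in 0.205% of all 21901 protein-coding genes. Of the 23 replication-dependent genes without a match, 13 have an annotated transcript that ends fewer than 16 bases after the coding sequence, too early to hold the letters. H2ax, the histone phosphorylated at DNA breaks, is known to make both a stem-loop mRNA and a polyadenylated one. The following lines show the element, in capitals, of a gene of each core histone, of linker histone H1 and of H2ax, to show how little it varies.
H1f3: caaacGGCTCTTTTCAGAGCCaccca
H2ac19: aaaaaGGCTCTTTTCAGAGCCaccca
H2bc8: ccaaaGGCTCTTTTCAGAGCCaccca
H3c15: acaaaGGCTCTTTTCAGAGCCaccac
H4c4: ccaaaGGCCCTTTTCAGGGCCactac
H2ax: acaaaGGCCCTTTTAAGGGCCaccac
The core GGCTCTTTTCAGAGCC was that of 26 of the 41 genes. All 8 H4 genes with the element carried stems that begin with GGCCC, either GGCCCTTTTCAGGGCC (6 genes) or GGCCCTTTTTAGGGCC (2 genes), and no H1, H2A, H2B or H3 gene did. H2ax has a stem of the same letters around another loop. The transcripts as a whole also share much sequence: a median of 40.9% of a replication-dependent transcript's 31-base words were found in no other gene, against 91.1% for the replacement rows, and in 20 of the 64 rows the share was under 20%. Reads of such copies can be assigned to one another, and H2ac19 (0%), H3c11 (6.82%), H2ac24 (6.64%), H2bc13 (11.4%), H2bc15 (11.97%), H2ac22 (11.02%), H4c18 (12.5%), H4c12 (13.8%) and H3c13 (19.4%), named below, are among them.

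The promoters also differ by class. RefSeq promoter sequences (GRCm38.p6, 250 bases before to 50 after the start) were matched for 58 replication-dependent and 6 replacement genes and were searched on both strands for 4 letter strings. CCAAT was found in 86.2% of the replication-dependent promoters and in 41.1% of all 27025 promoters, and it was in every matched promoter of an H1, H2A, H2B or H3 gene and in 3 of 11 H4 promoters. TATAAA was found in 56.9%, against 15.7% of all. The octamer ATTTGCAT, known from H2B genes as a site of the factor OCT1, was found in 6 of 14 H2B and 6 of 17 H2A promoters, in none of the H1, H3 or H4 promoters and in 1.97% of all. TGACNNNGC, the core of the element that NRF2 binds, was found in 1 of the 58 replication-dependent promoters (1.72%), in 1 of the 6 replacement promoters (H3f3b) and in 14.0% of all. A match is only a run of letters. The promoters of 3 genes are printed with their matches in capitals, for H2bc8 with the octamer, for H4c4, the H4 gene followed below and 1 of the 3 in its class with CCAAT, and for H3f3b, the replacement gene with TGACNNNGC.
H2bc8 (GRCm38.p6 chr13:23571150-23571449, plus strand): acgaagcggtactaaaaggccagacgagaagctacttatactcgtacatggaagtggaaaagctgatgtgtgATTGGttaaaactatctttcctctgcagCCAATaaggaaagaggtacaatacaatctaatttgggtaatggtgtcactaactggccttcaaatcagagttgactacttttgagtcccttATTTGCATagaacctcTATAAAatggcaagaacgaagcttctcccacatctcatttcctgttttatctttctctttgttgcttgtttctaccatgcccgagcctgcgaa
H4c4 (GRCm38.p6 chr13:23581318-23581617, plus strand): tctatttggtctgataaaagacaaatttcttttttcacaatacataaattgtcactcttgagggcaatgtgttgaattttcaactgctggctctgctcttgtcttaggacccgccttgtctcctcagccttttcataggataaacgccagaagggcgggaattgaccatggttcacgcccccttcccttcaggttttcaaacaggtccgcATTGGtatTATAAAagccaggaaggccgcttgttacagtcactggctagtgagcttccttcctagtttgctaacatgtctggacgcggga
H3f3b (GRCm38.p6 chr11:116024455-116024754, minus strand): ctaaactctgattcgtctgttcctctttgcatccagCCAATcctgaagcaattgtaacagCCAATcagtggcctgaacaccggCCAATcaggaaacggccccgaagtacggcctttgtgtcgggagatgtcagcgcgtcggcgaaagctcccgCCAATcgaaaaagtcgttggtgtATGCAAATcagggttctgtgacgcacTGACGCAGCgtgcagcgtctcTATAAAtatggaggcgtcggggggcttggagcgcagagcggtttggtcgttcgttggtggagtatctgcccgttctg
The capitals of the H2bc8 promoter are 2 CCAAT (1 on the opposite strand), the octamer and TATAAA. Those of H4c4 are 1 CCAAT on the opposite strand and TATAAA. The H3f3b promoter holds 4 CCAAT, the octamer on the opposite strand, TGACNNNGC and TATAAA.

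The values below are log2(normalized count + 4), so that a row without reads stands at 2, and differences on this scale are understated for low rows. A difference is given with its standard error and with the adjusted p of limma (Benjamini-Hochberg over all rows tested). Between 4222365 and 7524264 reads per library could be recovered from the values. The Keap1 and Nqo1 rows went with the labels: the Keap1 gene row was -1.86 ± 0.07 (adjusted p = 2.20e-09) in KEAP1-KO against WT cells and -1.43 ± 0.13 (adjusted p = 1.83e-06) in the tumors, and Nqo1, an NRF2 target that encodes a quinone reductase, was 5.55 ± 0.18 (adjusted p = 1.41e-11) in KEAP1-KO against WT tumors and -6.30 ± 0.18 (adjusted p = 1.91e-12) in DKO against KEAP1-KO tumors on the log2 scale. The Nfe2l2 row is a minor transcript and checks nothing. 3 tumor libraries stood apart from their groups in the histone rows: KEAP1-KO tumor 3 of experiment A was high, and KEAP1-KO tumor 4 and DKO tumor 4 of experiment B were low. The counts of replication-dependent rows within experiments A and B are given with and without them. Counts of replacement rows, of rows by stem-loop and of the other gene lists include all libraries.

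Histone rows took a large share of the sequenced RNA in culture and a much smaller one in tumors. The 64 replication-dependent rows together held 4.86%, 4.21%, 4.56% and 4.29% of the normalized counts in the 4 WT cell libraries, 3.36%, 3.68%, 3.27% and 3.73% in KEAP1-KO cells, and 4.43%, 4.20%, 3.97% and 4.06% in DKO cells. Every KEAP1-KO cell library was below every WT and every DKO library, while WT and DKO overlapped. In experiment A the share was 2.09%, 2.23%, 2.14% and 1.76% in WT tumors and 1.22%, 1.29%, 1.88% and 1.19% in KEAP1-KO tumors. KEAP1-KO tumor 3 reached into the WT range and the other 3 lay below it. In these bulk samples, fewer cells in S phase and less histone RNA per cell cannot be told apart. In experiment B it was 1.56%, 1.67%, 1.57% and 1.22% for KEAP1-KO and 1.72%, 1.74%, 1.90% and 1.25% in DKO tumors, with overlap through DKO tumor 4. The 7 replacement rows held less: 0.371% ± 0.0142 (SD, n = 4) in WT cells, 0.349% ± 0.00605 in KEAP1-KO cells, 0.412% ± 0.0157 in DKO cells, 0.281% ± 0.0230 in WT tumors, 0.243% ± 0.0448 and 0.243% ± 0.0276 in the KEAP1-KO tumors of experiments A and B, and 0.302% ± 0.0367 in DKO tumors. There the DKO cells were the highest group, above both other cell groups without overlap. The ratio of the replication-dependent to the replacement share was 12.1 ± 0.5 (SD, n = 4) in WT cells, 10.1 ± 0.504 in KEAP1-KO cells, 10.1 ± 0.810 in DKO cells, 7.32 ± 0.433 in WT tumors, 5.70 ± 0.384 and 6.19 ± 0.488 in KEAP1-KO tumors and 5.46 ± 0.531 in DKO tumors. Every cell library had a higher ratio than every tumor library. The replacement rows of H2az1, H3f3a and H3f3b are single transcripts, and the macroH2A genes are not among the 7. The share and the ratio are therefore those of these rows and not of all replacement histone RNA.

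**Figure D1:**
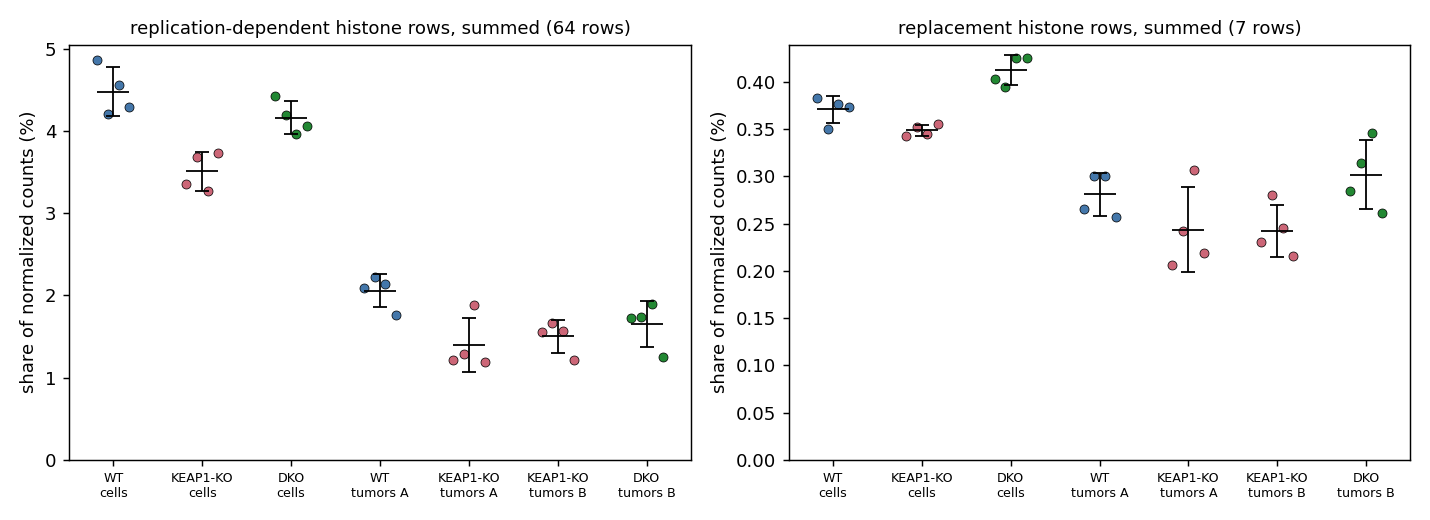
Summed share of the normalized counts (%) held by the 64 replication-dependent rows (left) and the 7 replacement rows (right) in each of the 28 libraries, by group. Points are libraries and bars the mean ± SD of 4. All 12 cell libraries lie above all 16 tumor libraries on the left. On the right DKO cells are highest, and DKO tumor 3 (0.346%) reaches the lowest KEAP1-KO cell libraries (0.342% and 0.344%).

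Within the replication-dependent total, the 5 classes kept nearly the same proportions in all groups. The group means of the H1 share ran from 13.7% to 15.8%, of H2A from 20.9% to 23%, of H2B from 17.9% to 19%, of H3 from 25.2% to 28.3% and of H4 from 17.1% to 18.4%. The lowest H1 share was that of WT cells, 13.7% ± 0.407 against 15.4% ± 0.633 in KEAP1-KO cells. The highest H2A and lowest H3 shares were both those of the KEAP1-KO tumors of experiment A, 23% ± 0.4 and 25.2% ± 0.464.

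The first comparison asks what loss of KEAP1 does to histone RNA in culture. Replication-dependent histones fell in KEAP1-KO against WT cells: of 61 rows tested, 42 were lower and 1 was higher at an adjusted p under 0.05 (limma, Benjamini-Hochberg over all rows), where 7.33% of all rows tested were lower and 8.13% higher. The median difference of the 61 rows was -0.44, and that of all rows was 0.02. The decrease covered every class, with 3 of 5 H1, 12 of 17 H2A, 13 of 16 H2B, 6 of 11 H3 and 8 of 12 H4 rows lower. H2ac21, an H2A gene with 70.8% of its words unique, had the largest called difference. Its values were 8.90, 8.21, 8.70 and 8.51 in WT cells and 7.17, 7.38, 7.22 and 7.73 in KEAP1-KO cells, without overlap, a difference of -1.21 ± 0.17 (adjusted p = 0.000258). H2bc13, which encodes an H2B, stood at 11.15, 10.99, 11.20 and 11.02 and then at 10.20, 10.41, 10.34 and 10.43 (-0.75 ± 0.06, adjusted p = 4.31e-06). H2bc22, another H2B gene, differed by -0.68 ± 0.07 (adjusted p = 3.18e-05). H4c4, the H4 gene whose promoter is shown above, stood at 13.95, 13.62, 13.81 and 13.59 in WT cells and 13.16, 13.39, 13.23 and 13.45 in KEAP1-KO cells (-0.44 ± 0.08, adjusted p = 0.00324). H1f3, a linker histone that binds between nucleosomes, differed by -0.43 ± 0.07 (adjusted p = 0.00124) and H1f5 by -0.42 ± 0.08 (adjusted p = 0.00188). The row that went the other way was H1f1, also a linker histone, at 12.45, 12.12, 12.28 and 12.03 in WT cells and 12.48, 12.66, 12.46 and 12.73 in KEAP1-KO cells (0.36 ± 0.08, adjusted p = 0.0106). H1f1 was singled out after its values were seen. The groups of H1f1 did not overlap, although its lowest KEAP1-KO value was close to the highest WT value. The difference in H3c15, the H3 row with the highest mean value, did not pass the test (-0.28 ± 0.11, adjusted p = 0.108).

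The same comparison in tumors pointed the same way. In experiment A, 35 of 60 replication-dependent rows fell from WT to KEAP1-KO tumors and none rose (limma, at an adjusted p under 0.05), where 7.49% of all rows tested were lower and 5.61% higher. These counts leave out H1f6, which is near the floor, was also called lower (-1.14) and passed the filter on low values only through WT and DKO tumors, where it is high. All 60 differences were below 0, with a median of -0.56 and a range from -0.98 to -0.07, against a median of -0.03 over all rows. H3 rows were called most often, 10 of 11, then H1 with 4 of 5, H2B with 9 of 16, H4 with 5 of 11 and H2A with 7 of 17. The count, 36 with H1f6, depends on single libraries: it was 49 without KEAP1-KO tumor 3, the library that stood apart, and 19 without WT tumor 2, KEAP1-KO tumor 1 or KEAP1-KO tumor 4, 21 to 23 without WT tumor 1, WT tumor 3 or KEAP1-KO tumor 2, and 33 without WT tumor 4. The median difference stayed between -0.70 and -0.49 in these fits. H3c11, which encodes the replication-dependent H3, stood at 11.18, 11.36, 11.29 and 11.14 in WT tumors and 10.21, 10.33, 10.71 and 10.25 in KEAP1-KO tumors, without overlap (-0.87 ± 0.14, adjusted p = 0.000595). H2bc13 stood at 9.51, 9.76, 9.58 and 9.25 and 8.18, 8.62, 9.08 and 8.33 (-0.98 ± 0.17, adjusted p = 0.000868). For H2bc13 too, KEAP1-KO tumor 3 came nearest to the WT tumors and still lay below all of them. H2bc15, an H2B gene, differed by -0.92 ± 0.20 (adjusted p = 0.00492), H1f5 by -0.82 ± 0.19 (adjusted p = 0.00869) and H4c4 by -0.51 ± 0.12 (adjusted p = 0.00716). Without KEAP1-KO tumor 3 the difference was -0.62 in H4c4, -0.98 in H3c11, -1.15 in H2bc13 and -0.72 in H1f3. H1f3 stood at 11.90, 11.96, 12.10 and 11.91 in WT tumors and 11.11, 11.41, 11.63 and 11.23 in KEAP1-KO tumors (-0.63 ± 0.15, adjusted p = 0.00943). The difference in H2ac21 did not pass the test here (-0.21 ± 0.20, adjusted p = 0.595). The KEAP1-KO tumors of experiments A and B are 1 genotype in 2 experiments and on opposite flanks. They differed in none of the 61 rows at an adjusted p under 0.05 (limma), where 0.164% of all rows did. Beside so low a share, a count of none is no result about the histone rows. In the same comparison 3 of 6 leukocyte and 4 of 7 macrophage marker rows were higher in experiment B, and their part in the histone rows was not tested. At an unadjusted p under 0.05 the limma fit had 1 of the 61 rows, and the share of all rows at that rule was not counted.

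**Figure D2:**
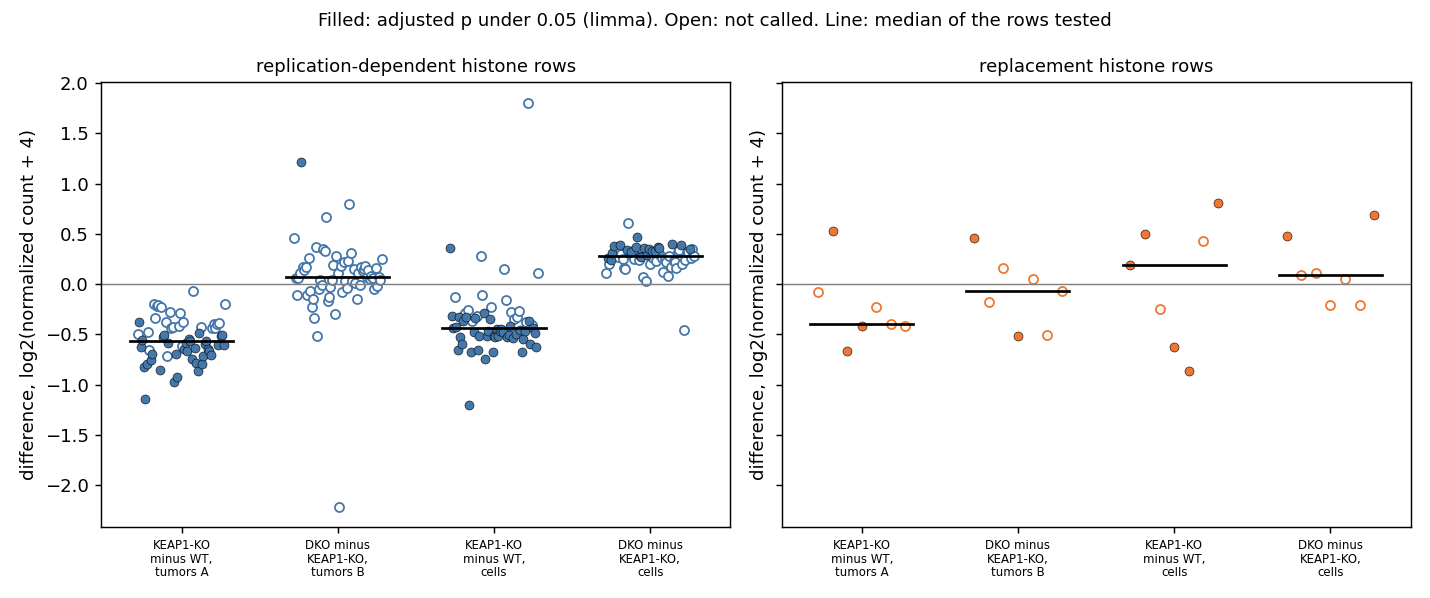
Difference of each tested histone row between adjacent genotypes on the log2(normalized count + 4) scale, for replication-dependent rows (left) and replacement rows (right). Filled points passed an adjusted p under 0.05 (limma), open points did not, and lines are medians. The replication-dependent rows have medians of -0.56 (all 61, H1f6 included, below 0) in tumors and -0.44 (56 of 61 below 0) in cells for KEAP1-KO minus WT, 0.28 in DKO minus KEAP1-KO cells and 0.07 in DKO minus KEAP1-KO tumors.

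With Nrf2 edited as well, replication-dependent histones were higher than in KEAP1-KO cells. In DKO against KEAP1-KO cells 21 of 61 rows were higher and none was lower, where 3.98% of all rows tested were higher and 4.85% lower, and the median difference was 0.28. Without the filter on low values 10 of 64 rows were higher. The count ranged from 6 to 23 when single libraries were left out. It was 6 without KEAP1-KO cell library 3 or DKO library 2, 7 without KEAP1-KO library 1, 8 without DKO library 1, and 13 without DKO library 4. The median difference stayed between 0.24 and 0.33. H2bc8 stood at 12.31, 12.32, 12.35 and 12.50 in KEAP1-KO cells and 12.73, 12.87, 12.71 and 12.67 in DKO cells (0.37 ± 0.07, adjusted p = 0.00585). H2bc15 differed by 0.36 ± 0.06 (adjusted p = 0.00163) and H4c4 by 0.35 ± 0.08 (adjusted p = 0.0201). The call of H4c4 was lost without KEAP1-KO library 1 or 3 or DKO library 1 or 2 (adjusted p 0.0517 to 0.0645). H2aw, an H2A gene outside the large cluster, differed by 0.47 ± 0.09 (adjusted p = 0.00576). Its values were 11.37, 11.03, 11.13 and 11.09 in WT, 11.27, 11.58, 11.28 and 11.59 in KEAP1-KO and 12, 11.90, 11.81 and 11.88 in DKO cells, so that DKO cells exceeded both other groups. Against WT cells, DKO cells were lower in 13 of the 61 rows and higher in 2 (H1f1 and H2aw), where 9.20% of all rows were lower and 8.46% higher, with a median of -0.15. The count of 13 fell to 7 without WT library 1, DKO library 3 or DKO library 4, and to 8 without WT library 3. H2ac21 and H2bc13 differed by -1.06 ± 0.17 (adjusted p = 0.000631) and -0.48 ± 0.06 (adjusted p = 0.000159), respectively. The comparisons among the 3 cell groups share libraries and are not independent of each other.

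The most highly expressed rows of each class show the size of the change where counting error is small. H1f2, a linker histone, stood at 13.41, 13.04, 13.29 and 13.16 in WT, 12.86, 12.99, 12.79 and 13 in KEAP1-KO and 13.20, 13.19, 13.10 and 13.20 in DKO cells. Every KEAP1-KO library was below every WT library, by a narrow margin (-0.31 ± 0.07, adjusted p = 0.0101), and every DKO library was above every KEAP1-KO library (0.26 ± 0.07, adjusted p = 0.0412). In experiment A H1f2 differed by -0.38 ± 0.10 (adjusted p = 0.0156). H2ac19, an H2A gene without a single word of its own, differed by -0.32 ± 0.09 (adjusted p = 0.0216) in KEAP1-KO against WT cells and by -0.34 ± 0.12 (adjusted p = 0.0690) in the tumors. H2ac24, likewise a near copy, differed by -0.47 ± 0.09 (adjusted p = 0.00326) in cells. For H2bc8 the KEAP1-KO minus WT difference was -0.45 ± 0.07 (adjusted p = 0.000968) in cells and -0.57 ± 0.14 (adjusted p = 0.0133) in tumors (-0.68 without KEAP1-KO tumor 3). H3c13, an H3 gene, differed by -0.42 ± 0.10 (adjusted p = 0.0128) in cells and -0.48 ± 0.15 (adjusted p = 0.0496) in tumors. H4c18, an H4 gene, differed by -0.37 ± 0.11 (adjusted p = 0.0477) and -0.39 ± 0.14 (adjusted p = 0.0856). H2ac22, an H2A gene among the larger changes in both settings, differed by -0.68 ± 0.09 (adjusted p = 0.000276) in cells and by -0.86 ± 0.23 (adjusted p = 0.0196) in tumors. From KEAP1-KO to DKO cells the highly expressed rows H3c15 (H3) and H2bc18 (H2B) differed by only 0.08 and 0.04, and their groups overlapped. These were the lowest differences among the tested rows of their class. Outside the 2 highest rows of each class, called increases beside that of H2aw included that of H3c4 with 0.40 ± 0.10 (adjusted p = 0.0205), H2ac15 with 0.39 ± 0.09 (adjusted p = 0.0197) and H4c12 with 0.39 ± 0.11 (adjusted p = 0.0449). Several of these calls rest on single libraries. In cells, that of H2ac19 was lost without WT library 3 or 4 or KEAP1-KO library 1 or 3 (adjusted p 0.0501 to 0.0659), and that of H4c18 without WT library 1 or 3 or KEAP1-KO library 1, 2 or 3 (0.0738 to 0.132). From KEAP1-KO to DKO cells, the calls of H1f2 and H4c12 were lost without any 1 library other than KEAP1-KO library 4 (up to 0.124 and 0.126), and those of H3c4 and H2ac15 without KEAP1-KO library 1 or 3 or DKO library 1 or 2 (up to 0.0675 and 0.0652). In tumors, the call of H3c13 was lost without any 1 library other than WT tumor 4 and KEAP1-KO tumor 3 (up to 0.15), that of H2ac22 without WT tumor 1 or 2 or KEAP1-KO tumor 4 (up to 0.0679), and that of H1f2 without KEAP1-KO tumor 1 (0.0568).

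In tumors no such rise was called. Of 61 rows, 1 was higher in DKO than in KEAP1-KO tumors and 0 were lower, where 4.22% of all rows were higher and 4.64% lower. At an unadjusted p under 0.05, 1 was lower and 3 higher in the limma fit. The share of all rows at that rule was not counted, so these counts are not read as a result. The median difference was 0.07. The lowest, -2.22, was that of H2bc24, which stood at 2.0 in DKO tumor 2, where its near copy H2bc23 stood at 9.0. Without DKO tumor 4, 2 rows were higher and the median was 0.21, and without KEAP1-KO tumor 4 the count was 1 and the median -0.02. H4c4 stood at 11.77, 11.87, 11.74 and 11.48 in KEAP1-KO tumors and 11.71, 11.81, 11.88 and 11.38 in DKO tumors, almost the same range (-0.02 ± 0.12, adjusted p = 0.962). The called row was H1f6, the H1t gene known from the testis, which is near the floor of the table. It had 0.997, 0.931, 0 and 1.13 normalized counts in KEAP1-KO tumors and 8.77, 10.3, 8.09 and 2.56 in DKO tumors. In experiment A it had 7.19, 9.53, 5.48 and 2.55 in WT tumors and 0, 0, 0.966 and 0.973 in KEAP1-KO tumors. It reached the 5 counts of the filter in 3 WT and 3 DKO tumors and in no KEAP1-KO tumor, so the row was tested only through the groups where it is high, and its calls are no support for a difference. In cells it had between 0 and 6.27 and did not pass the filter on low values. DKO tumors set against WT tumors, which differ in experiment as well as genotype, were lower in 13 of 61 rows and higher in none, where 5.99% of all rows were lower and 4.57% higher. The count was 9 without DKO tumor 4 and 17 without DKO tumor 3, the lowest and highest with 1 library left out.

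The size of the KEAP1 effect was compared between tumors and cells by the difference of the differences, in a fit over all 28 libraries. It passed the test for 2 of 63 replication-dependent rows, 1 in each direction, and for 5 of all histone rows, where 5.38% of all rows did. The 2 rows were H2ac21, which fell in cells and not detectably in tumors (difference of differences 1.0 ± 0.27, adjusted p = 0.0271), and H1f6, which passed the filter through the tumor groups where it is high. The other 3 were the replacement genes H2az2 and H3f3b and the antisense RNA H3f3aos, described below. For the effect of Nrf2 deletion on KEAP1-KO the test passed for H1f6 alone, with the same limit, where 3.67% of all rows did, although the counts of called rows were 21 in cells and 1 in tumors.

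The 7 replacement rows did not move as a block. H2aj, an H2A variant known to accumulate in senescent cells, was higher with KEAP1 loss in both settings. It stood at 9.97, 9.66, 9.89 and 9.68 in WT and 10.20, 10.35, 10.30 and 10.33 in KEAP1-KO cells (0.50 ± 0.07, adjusted p = 0.000319), and at 9.02, 8.93, 9.19 and 9.09 in WT and 9.65, 9.52, 9.64 and 9.54 in KEAP1-KO tumors (0.53 ± 0.09, adjusted p = 0.000768). Neither pair of groups overlapped. It did not come down detectably with Nrf2 deletion: the DKO minus KEAP1-KO difference was 0.09 ± 0.07 (adjusted p = 0.572) in cells and -0.17 ± 0.09 (adjusted p = 0.306) in tumors. H2aj was singled out after its values were seen.

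H1f0 encodes H1.0, the linker histone of resting and differentiated cells. It stood at 13.19, 13.02, 13.18 and 13.18 in WT, 13.28, 13.30, 13.34 and 13.39 in KEAP1-KO and 13.70, 13.73, 13.91 and 13.90 in DKO cells, 3 groups that did not overlap, and the steps were 0.19 ± 0.06 (adjusted p = 0.0366) and 0.48 ± 0.06 (adjusted p = 9.28e-05). In tumors it was 12.65, 13.04, 12.87 and 12.62 without NRF2 loss and 13.15, 13.37, 13.46 and 13.05 with it in experiment B (0.46 ± 0.13, adjusted p = 0.0358), while the groups of experiment A overlapped widely (-0.08 ± 0.13, adjusted p = 0.776). The call in experiment B was lost without KEAP1-KO tumor 1, 3 or 4 or DKO tumor 2 or 3 (adjusted p 0.0567 to 0.111). The smaller step in cells was lost without any 1 library other than WT library 1 and KEAP1-KO library 1 (0.0542 to 0.1).

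H3f3b is 1 of 2 genes for H3.3, the H3 form deposited outside S phase. Its listed transcript stood at 8.67, 8.56, 9.38 and 8.67 in WT, 9.53, 9.64, 9.67 and 9.67 in KEAP1-KO and 10.17, 10.34, 10.38 and 10.37 in DKO cells, with steps of 0.81 ± 0.14 (adjusted p = 0.00167) and 0.69 ± 0.14 (adjusted p = 0.00850). WT library 3 was higher than the other 3 of its group and still below the KEAP1-KO libraries. In tumors it stood at 8.13, 8.73, 8.37 and 8.28 in WT and 8.02, 7.87, 7.94 and 8.0 in KEAP1-KO tumors (-0.42 ± 0.25, adjusted p = 0.327). In experiment B it stood at 6.87, 7.92, 8.17 and 7.60 in KEAP1-KO and 7.33, 7.08, 7.86 and 8.03 in DKO tumors (-0.06 ± 0.25, adjusted p = 0.929), with overlapping groups. The KEAP1 effect on this transcript differed between tumors and cells, by -1.23 ± 0.31 (adjusted p = 0.0148). The H3f3a transcript was near the floor, between 2.0 and 4.84 over the 28 libraries, and no comparison of it passed.

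H2A.Z, a variant placed at promoters, is made from H2az1 and H2az2. The listed H2az1 transcript stood at 13.33, 12.93, 13.12 and 13.03 in WT and 12.27, 12.60, 12.42 and 12.62 in KEAP1-KO cells (-0.62 ± 0.09, adjusted p = 0.000559), and at 12.38, 12.30, 12.11 and 12.27 in DKO cells, not detectably below KEAP1-KO (-0.21 ± 0.09, adjusted p = 0.245). In tumors it fell by both steps: 11.40, 11.51, 11.44 and 11.44 in WT and 10.87, 11.13, 11.28 and 10.83 in KEAP1-KO tumors (-0.42 ± 0.11, adjusted p = 0.0212), and then 11.20, 11.36, 11.11 and 11.19 in KEAP1-KO and 10.69, 10.67, 11.02 and 10.43 in DKO tumors (-0.51 ± 0.11, adjusted p = 0.00800). The first of these steps was lost without WT tumor 2 or KEAP1-KO tumor 1 or 4 (adjusted p 0.0581 to 0.0728). H2az2 stood at 8.63, 8.57, 8.66 and 8.63 in WT cells, 7.68, 7.89, 7.67 and 7.80 in KEAP1-KO cells and 7.73, 7.95, 7.78 and 7.78 in DKO cells. WT cells were far above both edited lines, which overlapped (-0.86 ± 0.07, adjusted p = 2.57e-06, then 0.05 ± 0.07, adjusted p = 0.780). In tumors the difference did not pass (-0.23 ± 0.13, adjusted p = 0.306), and the effects in tumors and cells differed by 0.63 ± 0.15 (adjusted p = 0.0122).

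H2ax, the replacement gene with a stem-loop, stood at 10.88, 10.95, 10.91 and 10.51 in WT and 9.99, 9.98, 10.75 and 9.88 in KEAP1-KO tumors (-0.66 ± 0.20, adjusted p = 0.0401). KEAP1-KO tumor 3 again lay within the WT range. Without that tumor the difference was -0.86 (adjusted p = 0.00361), and the call was lost without any 1 of the others except WT tumor 4 (0.0893 to 0.117). In cells the difference did not pass (-0.25 ± 0.09, adjusted p = 0.0987). Of the 7 replacement rows, 1 was higher and 2 were lower in KEAP1-KO against WT tumors, where 5.61% of all rows were higher and 7.49% lower. In DKO against KEAP1-KO tumors 1 was higher and 1 lower (4.22% and 4.64% of all rows). In KEAP1-KO against WT cells 3 were higher and 2 lower (8.13% and 7.33% of all rows). In DKO against KEAP1-KO cells 2 were higher and 0 lower (3.98% and 4.85% of all rows).

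**Figure D3:**
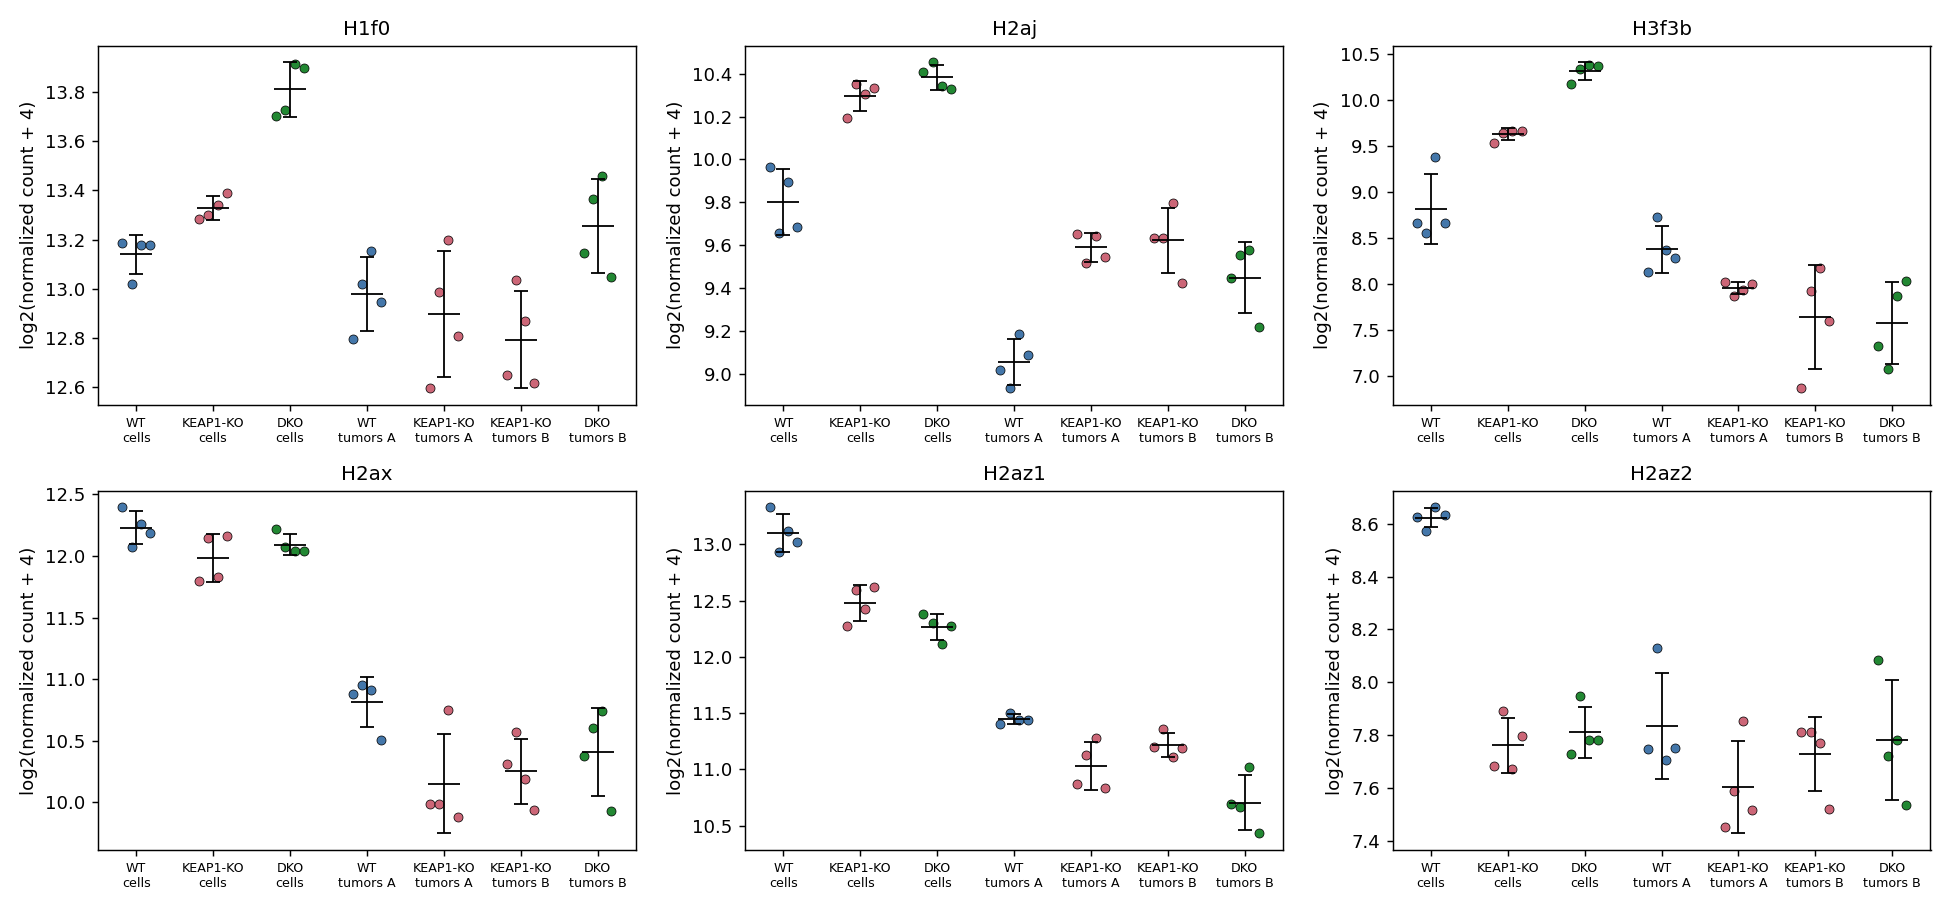
Values of 6 replacement histone rows, log2(normalized count + 4), in each library of the 7 groups, with the mean ± SD of 4 libraries. H1f0 and H3f3b step up from WT to KEAP1-KO to DKO cells, H2aj is higher in every KEAP1-KO than in every WT library of the same setting, and H2az1 and H2az2 are highest in WT cells. Axes do not start at 0.

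Differences larger than those between genotypes were found between tumors and cultured cells. Replication-dependent rows were lower in tumors in 58 of 63 rows tested for WT, 61 of 63 for KEAP1-KO and 60 of 63 for DKO, where 14.1%, 16.9% and 15.9% of all rows were lower. The only row called higher was H1f6 in DKO, and it is 1 of the 61 lower rows in KEAP1-KO, again a row tested through its high groups, while 24.7%, 27.0% and 27.6% of all rows were higher. H4c17 is also among the 61 lower rows in KEAP1-KO. Of the KEAP1-KO libraries it had reads only in cell libraries 1 and 2 (5.88 and 5.35), so its call is no support for a difference. The median differences were -1.54, -1.65 and -1.84, while the medians of all rows were 0.20, 0.17 and 0.23. H4c4 differed by -1.61 ± 0.11 (adjusted p = 4.51e-12) in WT tumors and H2bc18, an H2B gene, by -2.27 ± 0.14 (adjusted p = 9.57e-13). H1f1 differed by -2.81 ± 0.21 (adjusted p = 2.11e-11) in KEAP1-KO tumors. H2bc21, an H2B gene, differed by -0.39 ± 0.11 (adjusted p = 0.00401) in WT tumors. It was singled out after its values were seen. Replacement rows were lower in 4, 5 and 5 of 7, with medians of -0.74, -0.69 and -0.93. H1f0 stood at 12.79, 13.02, 13.15 and 12.95 in WT tumors, overlapping WT cells (-0.16 ± 0.11, adjusted p = 0.260). H2ax differed by -1.42 ± 0.17 (adjusted p = 1.64e-07) and the H2az1 transcript by -1.65 ± 0.11 (adjusted p = 3.40e-12), nearer to the replication-dependent rows. In a tumor, host cells add RNA of their own. Of the rows with a stem-loop, 37 of 40 were lower in WT tumors, and of those without a match 21 of 23 (in KEAP1-KO against WT cells, 22 of 39 and 20 of 22, and in the tumors of experiment A, 21 of 38 without H1f6 and 14 of 22). All 3 comparisons set tissue against culture, and dissection and host cells come with the tumors.

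**Figure D4:**
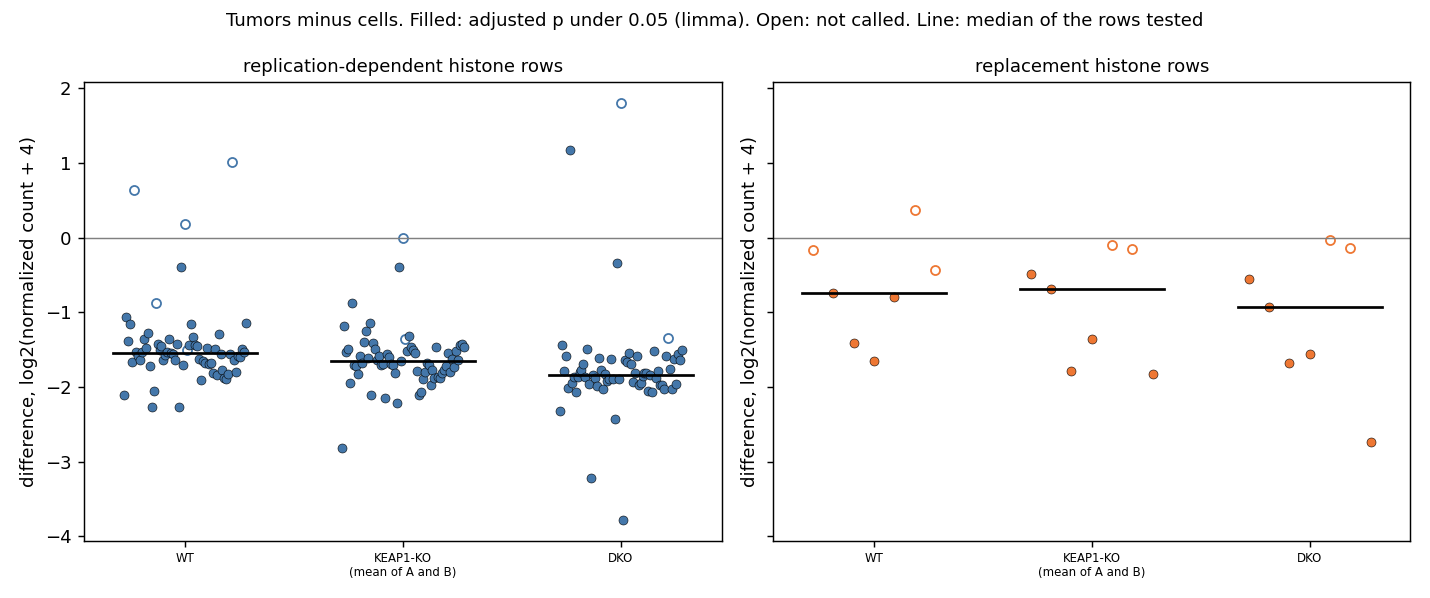
Difference between tumors and cultured cells of each tested histone row, by genotype, on the log2(normalized count + 4) scale. Filled points passed an adjusted p under 0.05 (limma), open points did not, and lines are medians. Replication-dependent medians lie at -1.54, -1.65 and -1.84 and replacement medians at -0.74, -0.69 and -0.93.

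Other genes of the pathway were read from lists of S phase genes, histone mRNA processing factors and histone chaperones. Among 40 S phase rows tested in tumors, 12 fell and 1 rose from WT to KEAP1-KO tumors (median -0.39), where 7.49% of all rows fell and 5.61% rose. In cells 20 of 41 were lower and 2 higher (median -0.29), where 7.33% and 8.13% of all rows were. Among the rows that fell in tumors were E2f1 (-0.67 ± 0.09, adjusted p = 0.000127), the factor that drives S phase entry, and, as retained-intron transcripts, Pola2 (-0.77 ± 0.14, adjusted p = 0.00140), a subunit of the polymerase that primes replication, and Pcna (-0.75 ± 0.12, adjusted p = 0.000476), the replication clamp. In cells E2f1 was -0.63 ± 0.06 (adjusted p = 1.26e-05) and the Pcna transcript -0.64 ± 0.07 (adjusted p = 2.45e-05). In DKO against KEAP1-KO cells 8 of 41 S phase rows were higher and 5 lower, with a median of 0.02 and 19 of the 41 below 0, where 3.98% of all rows were higher and 4.85% lower. In the tumors 2 of 40 were higher and 1 lower, near the 4.22% and 4.64% of all rows. The summed S phase level ranged from 15.36 to 15.50 in WT cells, 15.01 to 15.17 in KEAP1-KO cells, 15.18 to 15.21 in DKO cells, 13.99 to 14.22 in WT tumors and 13.51 to 14.06 in the KEAP1-KO tumors beside them, and in experiment B from 13.74 to 14.04 for KEAP1-KO and 13.44 to 13.95 for DKO. It was thus lower in KEAP1-KO than in WT cells without overlap, as the replication-dependent share was, while the ranges of WT and KEAP1-KO tumors overlapped, as did those of the share. The sum in DKO cells lay above that in KEAP1-KO cells and wholly below that in WT cells, where the replication-dependent shares of WT and DKO overlapped. The part of S phase in the histone differences was not tested. Of 17 processing rows tested in tumors, only Cstf2t was lower in KEAP1-KO tumors (-1.52 ± 0.25, adjusted p = 0.000624), a share near the 7.49% of all rows. Of 13 processing rows tested in cells, 1 was lower and 1 higher in KEAP1-KO than in WT, near the 7.33% and 8.13% of all rows. The lower row was Slbp, a retained-intron transcript (-0.27 ± 0.06, adjusted p = 0.00720), and the higher row was Ncbp1, a cap-binding subunit. From KEAP1-KO to DKO cells 1 of 13 was higher and 3 were lower (3.98% and 4.85% of all rows). In tumors 0 of 17 were higher and 3 lower (4.22% and 4.64% of all rows). The row higher in DKO cells was Slbp (0.29 ± 0.06, adjusted p = 0.00673). Those lower in cells and tumors alike were Eri1, an exonuclease that trims histone mRNA, Upf1, a helicase of its decay, and Ncbp1. Their differences in tumors were -0.47 ± 0.09 (adjusted p = 0.00225), -0.44 ± 0.06 (adjusted p = 0.000237) and -0.30 ± 0.06 (adjusted p = 0.00334), respectively. Of the chaperones, 6 of 21 rows were lower in KEAP1-KO tumors and none higher, beside the same 7.49% and 5.61% of all rows. They included a retained-intron transcript of Chaf1a (-0.80 ± 0.12, adjusted p = 0.000280), which brings new H3 and H4 to replicated DNA, and a transcript of Rbbp7 (-0.78 ± 0.08, adjusted p = 7.52e-06), its partner. In cells, where 7.33% of all rows were lower and 8.13% higher, 7 of 22 were lower and 1, Daxx, which delivers H3.3, was higher (1.03 ± 0.32, adjusted p = 0.0484). From KEAP1-KO to DKO, 1 of 21 chaperone rows was higher and 3 lower in tumors (4.22% and 4.64% of all rows), and 2 of 22 were higher and 1 lower in cells (3.98% and 4.85% of all rows), among them a transcript of Hira, which deposits H3.3 (0.64 ± 0.08, adjusted p = 0.000197).

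Markers of host cells also moved between the tumor groups. Against the 7.49% of all rows that were lower and 5.61% higher in experiment A, and the 4.22% higher and 4.64% lower from KEAP1-KO to DKO tumors, the counts were as follows. All 6 leukocyte rows fell from WT to KEAP1-KO tumors (median -2.28) and rose from KEAP1-KO to DKO tumors (median 1.11). Their summed level ranged from 11.46 to 11.77 in WT, 9.33 to 9.49 and 10.03 to 10.43 in KEAP1-KO (experiments A and B) and 10.92 to 11.62 in DKO tumors, and none was at 0 in a group. In cells the sum was between 2.65 and 3.65, near the floor of 2. All 7 macrophage rows were lower in KEAP1-KO tumors of experiment A (median -1.48) and 3 were higher in DKO tumors, and 1 of 5 fibroblast rows was lower and 2 were higher. Of the T and NK cell rows 1 of 2 tested was lower in KEAP1-KO tumors, of skeletal muscle rows the 1 tested was higher in DKO tumors, and of endothelial, B cell and red blood cell rows none was called in either comparison. Between the KEAP1-KO tumors of the 2 experiments, where 0.164% of all rows were called, 3 of 6 leukocyte rows (median 0.81) and 4 of 7 macrophage rows (median 0.76) were called higher in experiment B. In cells the only macrophage row tested, a processed transcript of Cd68, was higher in KEAP1-KO than in WT cells (2.38 ± 0.24, adjusted p = 1.80e-05). The part of these cells in the tumor differences was not tested.

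Rows of near-identical copies showed a different kind of variation. H2bc23 had no reads in 23 of the 28 libraries and stood at 7.86 to 9.0 in the other 5. In DKO tumors it was 2.0, 9.0, 8.84 and 2.0, and H2bc24, which shares 89.4% of its words with H2bc23, was 9.02, 2.0, 7.72 and 8.60. The 2 libraries with reads on H2bc23 are those where H2bc24 was at 2.0 or 7.72, and the log2 of the summed counts of both rows was 9.02, 9.0, 9.38 and 8.60 in the 4 DKO tumors. H4c17 was at 0 in 22 libraries and H3c14 in 27. These rows were singled out after their values were seen. The pseudogenes and the antisense RNA complete the set. Of 4 pseudogenes tested in tumors and 5 in cells none was called between genotypes, where at most 9.20% of all rows were called in 1 direction. At an unadjusted p under 0.05 a limma fit had 0 to 2 of these pseudogenes, and the share of all rows at that rule was not counted. Between tumors and cells H2bu1-ps was lower in all 3 genotypes, with a difference of -2.08 ± 0.20 (adjusted p = 3.70e-09) in WT. H2af-ps1, called higher in the tumors, reached the filter's 5 counts in tumor libraries only, so that call is no support for a difference. H3f3aos, on the opposite strand of H3f3a, was not called between genotypes within tumors or cells, but its KEAP1 effect differed between them by 0.90 ± 0.24 (adjusted p = 0.0263). These rows, too, were singled out after their values were seen.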

How the data were processed

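RNA of 16 tumors and 12 cell libraries was sequenced after ribosomal RNA depletion with strand-specific kits and quantified by the authors with Salmon against GENCODE mouse transcripts. The authors deposited 1 table of 43143 rows on a log2 scale, log2(normalized count + 4), which mixes gene and single-transcript rows. The methods speak of TPM, but low values of this table came out as whole reads in every library (within 0.05), so it was read as normalized counts. Library totals recovered in this way had a median of 5619787.5. Groups were compared with limma 3.58.1 (R 4.3.3), with an intensity trend, in 1 fit of the tumors (34215 rows), 1 of the cells (29744) and, for tumors against cells and interactions, 1 of all 28 libraries (37246). Rows below 5 normalized counts in all but 3 or fewer libraries were left out. P-values were adjusted by Benjamini and Hochberg over all rows tested. Fits across all groups share 1 estimate of the spread.

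Histone rows were classed by symbol. Named rows were the 2 with the highest mean of each class, up to 6 called rows with the largest difference in each comparison of adjacent genotypes, and the replacement genes H3f3a, H3f3b, H2az1, H2az2, H2ax and H1f0. The members and all gene lists (S phase, histone mRNA processing, chaperones, cell type markers) were chosen with earlier results of these data known. Shared 31-base words were counted over GENCODE vM21 transcripts. The code was tested on simulated data. Alternatives covered the offset (0.4), the filter, scaling, the samples fitted, the replicate number as a block, summed rows and each library left out. Same-numbered libraries were not paired, since correlations of their deviations lay between -0.032 and 0.033.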

Additional observations from a re-analysis of the deposited data

Results flagged for a closer look

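In groups of 4 libraries, a library was singled out where its gap to the nearest of the others exceeded the 95% limit of Dixon for 4 values. Of 210 groups of values checked, 22 met this, and chance gives about 5%. KEAP1-KO tumor 3 of experiment A was high in H2ax (10.75, against at most 9.99 in the other 3), H2bc8 (11.14), H4c4 (11.95) and the replication-dependent share (1.88%, against at most 1.29%). DKO tumor 4 was low in H1f3 (10.83, against at least 11.50), H1f5 (10.07), H2bc15 (8.66), H2bc22 (8.07), H2bc8 (10.34) and H3c11 (10.20). KEAP1-KO tumor 4 of experiment B was low in H2ac19 (11.47), H2az2 (7.52), H2bc22 (8.14) and H3c4 (9.89). These 3 libraries account for 14 of the 22. Among the other WT tumors and KEAP1-KO tumors, H2ax stood at 10.51 in WT tumor 4, H2az2 at 8.13 in WT tumor 2, and H1f6 at the floor of 2.0 in KEAP1-KO tumor 3 of experiment B. In cells, H1f0 stood at 13.02 in WT library 2, H3f3b at 9.38 in WT library 3 and 10.17 in DKO library 1, H1f2 at 13.10 in DKO library 3, and H2bc15 at 11.08 in DKO library 2. All values but the share are log2(normalized count + 4).

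Effects that differed between tumors and cells by the interaction test (limma over all 28 libraries, adjusted over all rows) were those of KEAP1 loss on H3f3aos (difference 0.90 ± 0.24 SE, adjusted p = 0.0263), H2az2 (0.63 ± 0.15, adjusted p = 0.0122), H3f3b (-1.23 ± 0.31, adjusted p = 0.0148), H1f6 (-1.56 ± 0.36, adjusted p = 0.00791) and H2ac21 (1.0 ± 0.27, adjusted p = 0.0271), and that of Nrf2 deletion on H1f6 (2.01 ± 0.36, adjusted p = 0.00102). H1f6 passed the filter on low values mostly through the WT and DKO tumors where it is high, so both of its results are values without weight as support. For H3f3aos the difference was -0.42 in cells and 0.49 in tumors, and neither passed the test by itself.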

How the results depend on the processing

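None of the 56 called differences that were repeated under the alternatives changed direction. The count of histone rows called in DKO against KEAP1-KO cells was 23, and 12 without the filter on low values and 11 with the replicate block. In DKO against KEAP1-KO tumors it was 3, and 5 after quantile normalization. In DKO against WT tumors it was 16, and 8 when only rows with at least 20% unique 31-base words were counted, an alternative added after seeing the data that tests fewer rows. For the interaction of Nrf2 deletion it was 1, and 2 after median centring and 3 with rows summed per gene. Median centring moved the log2 summed replication-dependent level from 18.165 to 18.444 in WT cells, 17.775 to 17.963 in KEAP1-KO cells, 18.031 to 18.285 in DKO cells and 16.619 to 16.39 in WT tumors, and the replacement level from 14.572 to 14.851, 14.446 to 14.634, 14.695 to 14.949 and 13.749 to 13.52, and in DKO tumors from 13.766 to 13.551. Except where its construction shows it, the cause was not tested.

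With 1 library left out, the counts ranged from 20 to 52 for KEAP1-KO against WT tumors, 2 to 5 for DKO against KEAP1-KO tumors, 0 to 0 between the KEAP1-KO tumors, 13 to 20 for DKO against WT tumors, 40 to 51 for KEAP1-KO against WT cells, 8 to 25 for DKO against KEAP1-KO cells, 14 to 22 for DKO against WT cells, 63 to 65, 69 to 70 and 69 to 71 for tumors against WT, KEAP1-KO and DKO cells, and 3 to 7 and 1 to 2 for the interactions of KEAP1 loss and Nrf2 deletion. With the replicate block the other counts were 50 for KEAP1-KO against WT tumors, 3 for DKO against KEAP1-KO tumors, 45 for KEAP1-KO against WT cells and 15 for DKO against WT cells, and every library correlated best with its own number only between WT and DKO cells, with r of at most 0.033. Of 56 called differences of 26 named genes, single libraries left out kept 343 of the repeats past the threshold and lost 105, and the other settings kept 405 and lost 43. A scaling added after seeing the data, which leaves out the 20 highest rows and all histone rows, left the counts within 1.5 times. Depth limits H1f6, H3f3a and the pseudogenes H1f11-ps, H2ac14, H2ac5-ps and H2af-ps1, which are near the floor.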
